A study of Mus musculus with 16 samples.

Results

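Interferon-stimulated genes (ISGs) were followed in mouse hearts that had received an adeno-associated virus. The group held 37 genes chosen by name, among them Ifit1, Isg15, Irf7, Oasl2 and Rsad2, and each was found as 1 of the 55573 rows of the count table. Of these, 36 passed the expression filter, together with 16857 genes in all, and Oas3 did not. The question put to them was whether the vector or pressure overload moved them, over the 4 groups and in each mouse.

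RNA was taken from the heart apex of 16 wild-type male mice, 4 in each group, 4 weeks after surgery. Every mouse had been injected under the skin on postnatal day 1 with AAV9, a serotype that reaches the heart well. In the AAV9-cTNT-GFP mice the vector carried GFP, and in the AAV9-cTNT-CARDINAL mice it carried the full-length mouse lncRNA Cardinal, in both driven by a chicken cardiac troponin T promoter that is active in cardiomyocytes. Mice of each vector then underwent sham surgery or transverse aortic constriction (TAC), which narrows the aorta and raises the pressure against which the left ventricle pumps. Groups are named by vector (AAV9-GFP or AAV9-Cardinal) and surgery (sham or TAC), and mice by the number in their label. No uninjected heart was among the samples, so an effect of AAV9 common to both vectors could not be measured.

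Cells release interferons when receptors inside them recognize viral nucleic acid. Type I interferons (alpha and beta) and interferon gamma bind receptors on neighboring cells, and JAK kinases then switch on STAT transcription factors, which bind interferon response elements in promoters, type I interferon acting through STAT2 with IRF9 as a partner. The genes switched on in this way make proteins that detect viral RNA, block its translation or degrade it, attack vacuoles that hold microbes, and restrain the response itself. In the heart they are known from viral myocarditis and are also studied in injury without infection.

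What the members shared beyond their names was examined in their promoters, using RefSeq windows on GRCm38.p6 that ran from 250 bases before to 50 bases after a transcription start. A window was held for 28 of the 37 genes. A core form of the interferon-stimulated response element (ISRE), GAAA and GAAA with any 2 bases between them or, on the other strand, TTTC and TTTC with any 2 bases between them, occurred in 17 of these 28 genes (60.7%), whereas 3.99% of all 27025 genes with a window held it. The letters TTCNNNGAA, the gamma-activated site, which reads the same on both strands, occurred in 6 of the 28 (21.4%) and in 9.55% of all genes. Both motifs were present in 4 members, with the matches overlapping in 1 window, and neither in 9. Of the members that TAC changed, Rsad2 and Trim30a held ISRE letters, Oasl2 and Ifi44 held neither motif in this window, and no window was held for Dhx58, Usp18 and Iigp1. A match describes the letters and not a bound site, and its absence describes this window only. The stretches below, written 5′ to 3′ on the strand of the gene with the ISRE letters in capitals, are shown because Rsad2 and Trim30a were called after TAC, Isg15 and Ifit1 are textbook ISGs with several matches, Ifit3 has a near copy among the members, and Irgm1 and Gbp3 were among the genes closest to the other members from mouse to mouse.
Rsad2, chr12:26456543-26456592, minus strand: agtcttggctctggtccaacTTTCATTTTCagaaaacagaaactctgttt
Trim30a, chr7:104465200-104465249, minus strand: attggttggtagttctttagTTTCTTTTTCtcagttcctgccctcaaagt
Isg15, chr4:156200855-156200916, minus strand: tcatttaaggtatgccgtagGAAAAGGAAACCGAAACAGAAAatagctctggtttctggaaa
Ifit1, chr19:34640765-34640833, plus strand: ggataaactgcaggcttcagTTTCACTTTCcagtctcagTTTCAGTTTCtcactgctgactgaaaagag
Ifit3, chr19:34583353-34583436, plus strand: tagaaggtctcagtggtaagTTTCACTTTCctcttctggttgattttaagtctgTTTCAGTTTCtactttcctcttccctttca
Irgm1, chr11:48871421-48871470, minus strand: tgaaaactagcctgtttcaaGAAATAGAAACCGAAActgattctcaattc
Gbp3, chr3:142559979-142560034, plus strand: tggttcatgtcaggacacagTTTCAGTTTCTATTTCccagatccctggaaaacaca
In Isg15, 3 overlapping matches formed 1 run, which ended 56 bases before the start site, and 2 matches overlapped in Irgm1 and in Gbp3. The 84-base stretch of Ifit3b (chr19:34607749-34607832) had the same letters as that of Ifit3.

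Libraries held 16441997 to 21904589 counted reads, and 3 counts, taken as the floor of detection, corresponded to between 0.126 and 0.195 CPM (read counts scaled to a common library size with edgeR's TMM factors, CPM in short). This floor covers counting error only. The vector was visible in the counts of its own transcript, since Cardinal (Gm12295) lay between 3.42 and 5.93 CPM in AAV9-GFP sham mice and between 26.2 and 40.0 CPM in AAV9-Cardinal sham mice, and after TAC between 3.59 and 7.24 CPM against 18.3 to 93.9 CPM. The 93.9 CPM belonged to AAV9-Cardinal TAC mouse 1. All 6 cardiomyocyte markers were detected in every heart. The labels number the samples of a group without stating how they were taken, and each was read as a mouse, so p-values measure the spread between these samples.

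The ISGs were expressed at low to moderate levels in all 4 groups. Mean CPM over the 16 mice ran from 0.325 for Oas3 to 33.1 for Iigp1, and the 37 genes summed to between 291 and 414 CPM per mouse. Per kilobase of exon, the highest were Ifi27l2a at 10.3 CPM per kb, Bst2, the tetherin that holds budding virus on the cell surface, at 9.88 CPM per kb, and Lgals3bp, a secreted glycoprotein, at 8.59 CPM per kb. At the low end stood Zbp1 at 0.248 and Oas3 at 0.0460 CPM per kb. Interferons themselves were at or near 0. Of 21 interferon genes, 18 had 0 counts in all 16 mice (Ifna7, Ifnz and Ifng being the exceptions), none passed the expression filter, and the sum over all 21 was at most 3 counts (0.130 CPM) in any mouse.

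TAC raised a few ISGs in AAV9-GFP hearts, and none was called in AAV9-Cardinal hearts. With AAV9-GFP, Oasl2, Rsad2, Dhx58 and Trim30a rose and no member fell, out of 36 tested (edgeR's quasi-likelihood fit over all genes, threshold 0.05 on the adjusted p). The 4 are 11.1% of the members, near the 8.49% of all tested genes that were called higher, while 8.92% of all genes were called lower. DESeq2 also called 4 members, with Dhx58 not among them (adjusted p = 0.057) and Iigp1 called lower, beside 2895 of all 16857 genes. With only these 8 mice in the fit, 9 members were called, along with 2338 of all 16306 genes that then passed the filter. The direction was shared more widely than the calls, as 14 members had an unadjusted p under 0.05 (38.9% beside 29.9% of all genes), of which 13 were higher and Iigp1 lower. A log2 fold change above 0 was found for 34 of 36 members (94.4%) beside 50.9% of all genes, with a median of 0.32 beside 0.01 for all genes, and the 4 TAC mice lay above the 4 sham mice for 11 members (30.6%) beside 10.1% of all genes. None lay wholly below, where 10.2% of all genes did. Members that vary together from mouse to mouse, as these did, are not separate observations. The members were also chosen with earlier results of these data known, so these shares are descriptions.

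With AAV9-Cardinal, 0 of 36 members were called after TAC, beside 3.10% of all genes called higher and 3.38% called lower. Iigp1 and Igtp, both with values below 0, had an unadjusted p under 0.05, 5.56% of the members beside 21.8% of all genes. DESeq2 called 1 member, Iigp1, beside 1369 of all 16857 genes. The median log2 fold change was 0.054 beside -0.00 for all genes, 23 members (63.9%) were above 0 beside 49.9% of all genes, and no member had groups without overlap, beside 6.51% of all genes higher and 7.21% lower. Without AAV9-Cardinal TAC mouse 1 the median was -0.051, and without AAV9-Cardinal sham mouse 2 it was -0.021, so its direction rested on single mice. The plot of TAC responses sets both vectors side by side, gene by gene.

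**Figure D1:**
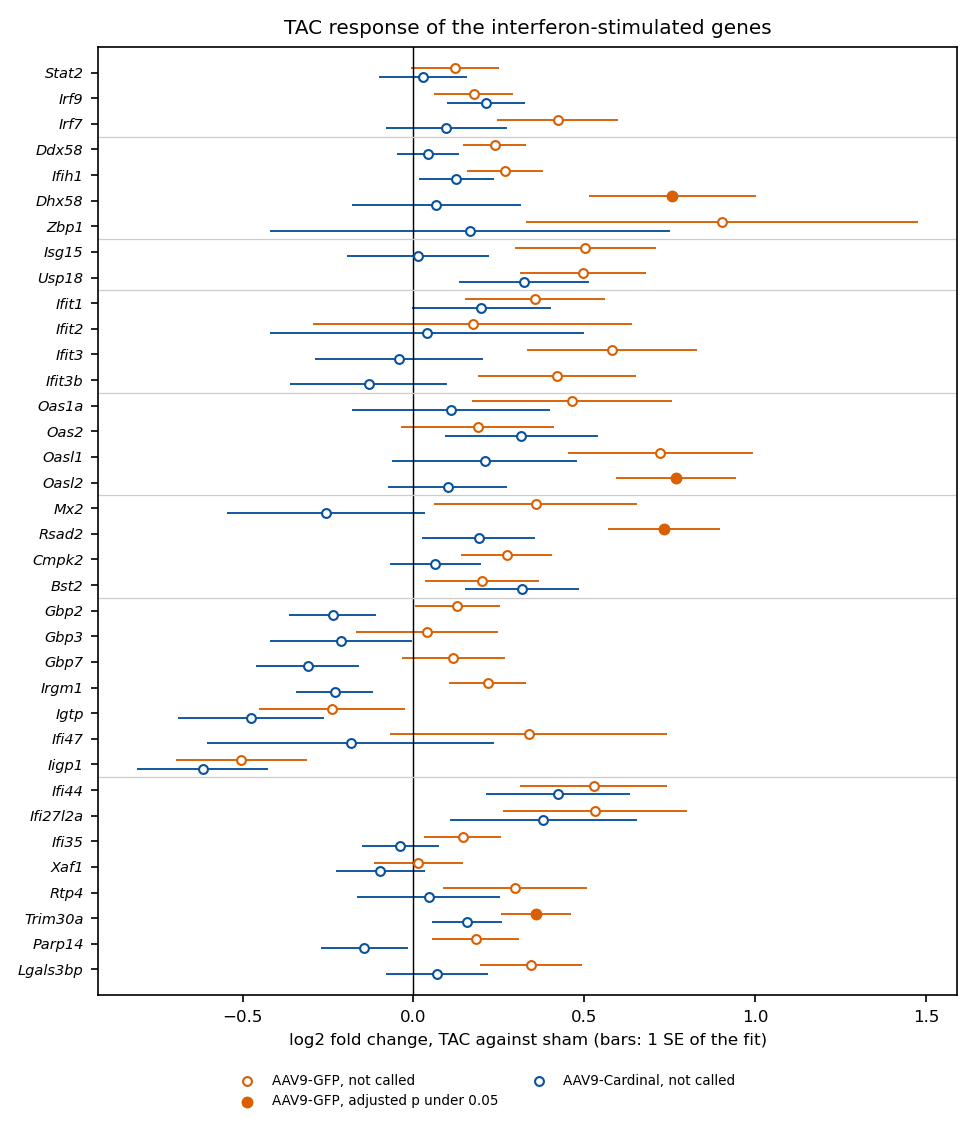
Log2 fold change of TAC against sham (x axis) for the 36 tested members (y axis, ordered by role) with AAV9-GFP in orange and AAV9-Cardinal in blue, bars 1 SE of edgeR's fit. Filled points, which are Dhx58, Oasl2, Rsad2 and Trim30a in AAV9-GFP hearts, had an adjusted p under 0.05. The 7 interferon-inducible GTPases among the members lay below 0 with AAV9-Cardinal.

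Among the transcription factors that carry the signal, Stat2, Irf9 and Irf7, none was called in any of the 7 comparisons. Stat2 was the most abundant by CPM, at 15.7, 17.2, 18.1 and 16.9 CPM in AAV9-GFP sham mice 1 to 4 and at 21.5, 17.3, 19.2 and 15.9 CPM in AAV9-GFP TAC mice 1, 3, 4 and 7. In AAV9-Cardinal mice it was at 17.1, 15.7, 20.1 and 16.7 CPM after sham surgery and at 22.3, 14.7, 19.2 and 14.8 CPM after TAC. The 4 groups overlapped throughout. Irf9, the DNA-binding partner of STAT2, was between 12.2 and 13.3 CPM in AAV9-GFP sham and between 13.7 and 15.2 CPM in AAV9-GFP TAC mice, which did not overlap, with a log2 fold change of 0.18 and an adjusted p of 0.34. Irf7, the factor that amplifies type I interferon production, had a log2 fold change of 0.42 (SE 0.18) in AAV9-GFP hearts with an adjusted p of 0.12, and of 0.10 (SE 0.18) in AAV9-Cardinal hearts.

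Dhx58 (LGP2), a helicase that tunes the cytoplasmic RNA sensors RIG-I and MDA5, was the sensor that rose with TAC in AAV9-GFP hearts. It lies on chr11:100694884-100704271, minus strand, and 2.90% of its 50-base stretches also occur in another annotated gene. Sham mice 1 to 4 had 0.946, 1.25, 0.882 and 0.978 CPM, and TAC mice 1, 3, 4 and 7 had 1.80, 1.93, 1.57 and 1.57 CPM. Every TAC mouse was above every sham mouse, a log2 fold change of 0.76 (SE 0.24) with an adjusted p of 0.044 (exact two-sided permutation p = 0.029, the smallest that 4 against 4 allow). The AAV9-Cardinal mice were at 1.27, 0.651, 1.73 and 1.43 CPM after sham surgery and at 1.42, 0.940, 1.77 and 1.15 CPM after TAC, which overlapped, with a log2 fold change of 0.07 (SE 0.25). The call was lost in 10 of 16 fits with a mouse left out, namely without any AAV9-GFP mouse but sham mouse 2, without AAV9-Cardinal sham mouse 1 or 4 and without AAV9-Cardinal TAC mouse 6. Over the 16 fits the adjusted p ran from 0.014 to 0.11.

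The other sensors were not called. Ddx58 (RIG-I), which binds uncapped viral RNA, had 11.9, 11.3, 14.2 and 12.1 CPM in AAV9-GFP sham mice and 15.0, 15.9, 12.8 and 14.7 CPM after TAC, against 13.9, 12.5, 15.7 and 13.0 and then 15.6, 13.3, 13.4 and 14.6 CPM with AAV9-Cardinal. Only AAV9-GFP TAC mouse 4 fell inside the range of its sham group, and the log2 fold change was 0.24 (SE 0.09) with an adjusted p of 0.090, beside 0.04 (SE 0.09) with AAV9-Cardinal. Ifih1 (MDA5), the sensor of long double-stranded RNA, had a log2 fold change of 0.27 (adjusted p = 0.11) in AAV9-GFP hearts and of 0.13 (adjusted p = 0.57) in AAV9-Cardinal hearts. Zbp1, a sensor of left-handed double helices, had the largest log2 fold change of any member with AAV9-GFP, 0.90, with an SE of 0.57. Its counts were low, between 11 and 42 in AAV9-GFP mice, and AAV9-Cardinal sham mouse 3 had 0 counts where the other 3 of its group had 13 to 30.

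Isg15, a ubiquitin-like modifier attached to proteins during the response, and Usp18, the protease that removes it and that restrains the type I receptor, had like values in AAV9-GFP hearts that did not pass the threshold. Usp18 was at 1.94, 2.50, 2.25 and 2.20 CPM in sham mice and at 2.74, 3.73, 3.37 and 2.70 CPM in TAC mice, which did not overlap (log2 fold change 0.50, SE 0.18, adjusted p = 0.079). With AAV9-Cardinal it was at 2.67, 1.86, 1.92 and 1.82 CPM after sham surgery and at 3.19, 1.88, 3.21 and 2.12 CPM after TAC, which overlapped (log2 fold change 0.32, SE 0.19, adjusted p = 0.35). Averaged over both vectors the TAC effect on Usp18 was 0.41 (SE 0.13), with an adjusted p of 0.035. The call was kept in 6 of 16 fits with a mouse left out, with an adjusted p from 0.014 to 0.081, and the direction was the same in all 16. Isg15 had a log2 fold change of 0.50 (SE 0.21, adjusted p = 0.11) with AAV9-GFP and of 0.01 (SE 0.21) with AAV9-Cardinal.

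The IFIT family, whose proteins bind viral RNA and block its translation, held 4 members and none was called. Ifit3 was at 4.40, 6.15, 5.54 and 5.47 CPM in AAV9-GFP sham mice and at 9.47, 9.02, 7.52 and 6.22 CPM in AAV9-GFP TAC mice, without overlap (log2 fold change 0.58, SE 0.25, adjusted p = 0.13). With AAV9-Cardinal, Ifit3 was at 10.9, 5.25, 7.35 and 5.64 CPM after sham surgery and at 10.7, 4.98, 5.96 and 6.81 CPM after TAC. The mouse numbered 1 was far above the rest in both of these groups, and the log2 fold change was -0.04 (SE 0.25). Ifit3 shares 51.2% of its 50-base stretches with other genes, above all with Ifit3b, so the split of reads between the pair is uncertain. Ifit3b had log2 fold changes of 0.42 and -0.13 in AAV9-GFP and AAV9-Cardinal hearts, and Ifit1 of 0.36 and 0.20.

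Ifit2 was the most abundant of the family by CPM and held 1 sample far from the rest. AAV9-GFP TAC mouse 7 had 1.00 CPM, from 23 counts, where mice 1, 3 and 4 had 16.2, 16.5 and 14.0 CPM. In AAV9-GFP sham mice Ifit2 was at 9.88, 12.1, 11.8 and 8.55 CPM, in AAV9-Cardinal sham mice at 18.4, 11.4, 14.7 and 10.6 CPM, and in AAV9-Cardinal TAC mice at 19.8, 11.4, 12.2 and 13.4 CPM. The 3 other AAV9-GFP TAC mice were thus above every AAV9-GFP sham mouse, and with mouse 7 included the log2 fold change was 0.17 (SE 0.47).

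The OAS family makes or relates to the enzymes that activate RNase L, which cuts RNA. Oasl2, an OAS-like protein with ubiquitin-like domains (chr5:114896936-114912234, plus strand), rose in AAV9-GFP hearts and, with Dhx58, had the largest fold change of the called members. It was at 6.67, 5.91, 7.06 and 6.31 CPM in sham mice 1 to 4 and at 11.9, 11.3, 10.3 and 10.7 CPM in TAC mice 1, 3, 4 and 7. The groups were far apart, 6.48 ± 0.492 against 11.0 ± 0.679 CPM (SD, n = 4 mice in each), with a log2 fold change of 0.77 (SE 0.18) and an adjusted p of 0.0072 in edgeR (exact two-sided permutation p = 0.029). In AAV9-Cardinal hearts Oasl2 was at 9.08, 6.83, 12.3 and 8.56 CPM after sham surgery and at 12.5, 7.14, 11.5 and 8.29 CPM after TAC. The sham mice of this vector were spread over most of the range of both AAV9-GFP groups, and the log2 fold change was 0.10 (SE 0.17, adjusted p = 0.81). Oasl2 was called with AAV9-GFP in all 16 fits with a mouse left out.

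Oasl1, which restrains translation of Irf7, was at 0.757, 1.01, 0.931 and 0.782 CPM in AAV9-GFP sham and at 1.33, 1.76, 1.22 and 1.43 CPM in AAV9-GFP TAC mice. These did not overlap, and the log2 fold change of 0.72 (SE 0.27) had an adjusted p of 0.082. With AAV9-Cardinal, Oasl1 was at 1.63, 0.744, 1.30 and 0.519 CPM after sham surgery and at 0.940 to 1.47 CPM after TAC, with a log2 fold change of 0.21 (SE 0.27). Oas2, a synthetase, was the most abundant of the family by CPM and had group means of 14.8 ± 3.01 and 16.9 ± 3.35 CPM (SD, n = 4) in sham and TAC hearts with AAV9-GFP and of 16.1 ± 6.37 and 20.1 ± 1.14 CPM with AAV9-Cardinal. Its AAV9-Cardinal sham mice ran from 9.81 to 25.0 CPM, which covered the values of all the other mice. Oas1a was at 3.45 CPM in AAV9-Cardinal TAC mouse 1 and at 1.12 to 2.83 CPM elsewhere, and 57.6% of its stretches occur in other genes, mainly Oas1g. Oas3 stayed at or below 0.587 CPM in every mouse and was not tested.

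Rsad2 (viperin), a radical enzyme that makes a chain-terminating nucleotide, rose with TAC in AAV9-GFP hearts by 0.73 on the log2 scale (SE 0.16, adjusted p = 0.0063). It lies on chr12:26442746-26456452 on the minus strand, next to Cmpk2, and none of its 50-base stretches occurs in another annotated gene. Sham mice were at 8.23, 11.1, 12.3 and 12.5 CPM and TAC mice at 16.6, 16.6, 19.8 and 20.4 CPM, without overlap. With AAV9-Cardinal the values were 14.6, 10.4, 13.2 and 11.0 CPM after sham surgery and 10.3, 12.8, 16.5 and 16.7 CPM after TAC, in which mouse 1 was below every sham mouse while mice 5 and 6 were above all of them (log2 fold change 0.19, SE 0.17, adjusted p = 0.56). Rsad2 was called with AAV9-GFP in all 16 fits with a mouse left out. Cmpk2, which supplies nucleotides for the same enzyme, had log2 fold changes of 0.27 (SE 0.13) with AAV9-GFP and 0.06 (SE 0.13) with AAV9-Cardinal. Bst2 had 0.20 and 0.32, and Mx2, a dynamin-like antiviral GTPase annotated as a polymorphic pseudogene in the C57BL/6 reference, had 0.36 and -0.26, all without a call.

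**Figure D2:**
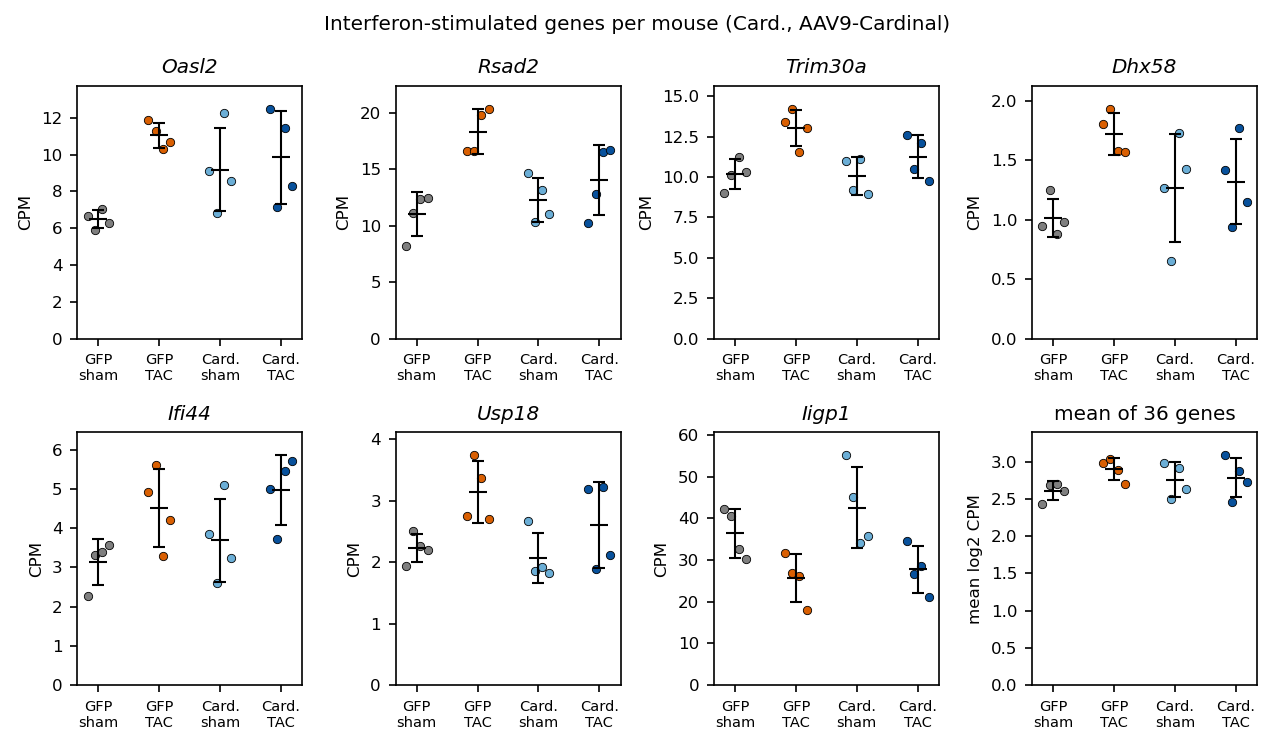
CPM (y axis, from 0) of the 7 members called in any comparison and, in the last panel, the mean log2 CPM of the 36 tested members, in each of the 4 groups (x axis), with a point for each mouse and bars for the mean and SD of 4 mice. Oasl2, Rsad2, Trim30a and Dhx58, and also Usp18, which was not called with AAV9-GFP, separate AAV9-GFP sham from AAV9-GFP TAC mice without overlap. The AAV9-Cardinal groups overlap in every panel. With AAV9-GFP, TAC mice lay wholly above sham mice for 11 of 36 tested members, beside 10.1% of all genes.

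The interferon-inducible GTPases, which gather on the membranes of vacuoles holding microbes, held the member that fell. Iigp1 (Irga6) was the most abundant ISG by CPM, at 42.2, 40.5, 32.5 and 30.4 CPM in AAV9-GFP sham mice and at 31.8, 26.9, 26.2 and 17.9 CPM in AAV9-GFP TAC mice. In AAV9-Cardinal hearts it was at 55.1, 45.1, 34.1 and 35.8 CPM after sham surgery and at 34.6, 26.6, 28.6 and 21.2 CPM after TAC. A single TAC mouse, numbered 1 in both vectors, reached into the range of its sham group. The log2 fold change was -0.50 (SE 0.19, adjusted p = 0.086) with AAV9-GFP and -0.62 (SE 0.19, adjusted p = 0.068) with AAV9-Cardinal, neither past the threshold alone in edgeR, while DESeq2 called Iigp1 lower with each vector. Averaged over both vectors Iigp1 fell by 0.56 on the log2 scale (SE 0.14, adjusted p = 0.0073), and this call was kept in all 16 fits with a mouse left out.

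The 6 other GTPases were not called. With AAV9-GFP, Igtp (Irgm3) had a log2 fold change of -0.24 and the remaining 5 had values from 0.04 to 0.34. With AAV9-Cardinal all 7 had values below 0, from -0.62 to -0.18, where 49.9% of all genes were above 0. Igtp had -0.48 (SE 0.21, adjusted p = 0.21) and Irgm1, which directs the other immunity-related GTPases, -0.23 (SE 0.11, adjusted p = 0.25). Not every GTPase outside the members had a lower mean after TAC with this vector. Gbp6 went from 21.2 to 29.9 CPM and Gbp8 from 1.63 to 1.74 CPM, while Gbp4, Gbp5, Gbp9, Irgm2, Gm4951, Tgtp1 and Tgtp2 had lower means. Irgm1 was at 11.3, 14.5, 13.2 and 11.6 CPM in AAV9-GFP sham and at 15.2, 16.7, 14.1 and 12.8 CPM in AAV9-GFP TAC mice, and with AAV9-Cardinal at 15.8, 12.5, 15.2 and 12.9 CPM and then 14.2, 10.6, 11.5 and 12.0 CPM. The higher group was TAC with GFP and sham with Cardinal, with overlap in both. Ifi47 had 0.188 CPM, from 4 counts, in AAV9-Cardinal TAC mouse 4 and 1.42 to 3.40 CPM in the other 15 mice.

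Trim30a, a ring-finger protein that limits inflammatory signaling (chr7:104409025-104465193, minus strand), rose with TAC in AAV9-GFP hearts by 0.36 on the log2 scale (SE 0.10, adjusted p = 0.024). It was at 9.03, 10.1, 11.3 and 10.3 CPM in sham and at 13.4, 14.2, 11.5 and 13.0 CPM in TAC mice, where the lowest TAC mouse stood just above the highest sham mouse. With AAV9-Cardinal it was at 11.0, 9.20, 11.1 and 8.95 CPM and then 12.6, 10.5, 12.1 and 9.76 CPM, which overlapped (log2 fold change 0.16, SE 0.10, adjusted p = 0.41). The call with AAV9-GFP was lost without sham mouse 1, sham mouse 2 or TAC mouse 3 of that vector, with adjusted p of 0.076, 0.054 and 0.078. Averaged over both vectors the effect was 0.26 (SE 0.07, adjusted p = 0.018).

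Ifi44, a cytoplasmic protein of uncertain role, was at 2.27, 3.31, 3.38 and 3.57 CPM in AAV9-GFP sham and at 4.93, 5.62, 3.28 and 4.22 CPM in AAV9-GFP TAC mice. With AAV9-Cardinal it was at 3.84, 2.60, 5.09 and 3.24 CPM and then 5.00, 3.71, 5.45 and 5.71 CPM, with overlap in both vectors. Its TAC effect was alike in size with either vector, 0.53 (SE 0.21) and 0.42 (SE 0.21), and 0.48 (SE 0.15, adjusted p = 0.033) averaged over both, a call kept in 9 of 16 fits with a mouse left out (adjusted p 0.011 to 0.071). Ifi27l2a, a small protein of the mitochondrial or nuclear membrane, did not overlap between AAV9-GFP sham (3.57 to 5.00 CPM) and AAV9-GFP TAC mice (5.09 to 6.63 CPM), and its log2 fold change of 0.53 had an adjusted p of 0.20. Lgals3bp was the most abundant of the remaining members by CPM, at 22.2 ± 2.65 and 28.1 ± 4.16 CPM (SD, n = 4) in AAV9-GFP sham and TAC hearts and at 23.2 ± 3.73 and 24.3 ± 4.76 CPM (SD, n = 4) in AAV9-Cardinal sham and TAC hearts. Parp14, Rtp4, Xaf1 and Ifi35 had log2 fold changes between 0.01 and 0.30 with AAV9-GFP and between -0.14 and 0.04 with AAV9-Cardinal, none called.

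Averaged over both vectors, TAC raised 5 of 36 members (Usp18, Oasl2, Rsad2, Ifi44 and Trim30a) and lowered Iigp1, beside 11.3% of all genes called higher and 11.8% called lower. These shares of the members are close to or below those of all genes. The median was 0.20 and 29 members were above 0, beside 51.0% of all genes, and 14 had an unadjusted p under 0.05, beside 34.9% of all genes. For Oasl2 the average effect was 0.43 (SE 0.12, adjusted p = 0.019) and for Rsad2 0.46 (SE 0.12, adjusted p = 0.0096).

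Exchanging GFP for Cardinal moved no ISG past the threshold. In sham hearts 0 of 36 members were called, beside 0.00593% of all genes in each direction. DESeq2 called 0 members and 4 of all 16857 genes. A value above 0 was found for 32 members beside 49.9% of all genes, with a median log2 fold change of 0.18, and no member was without overlap, beside 1.20% of all genes higher and 1.16% lower. Oasl2 had the largest value, 0.50 (SE 0.18), and was the 1 member with an unadjusted p under 0.05, beside 2.59% of all genes, with an adjusted p of 1. Mx2 had 0.49 (SE 0.30), Ifit3 0.45 (SE 0.25), Ifit3b 0.42 (SE 0.23), Ifit2 0.39 (SE 0.47) and Dhx58 0.31 (SE 0.26). The median was 0.082 without AAV9-Cardinal sham mouse 1 and 0.10 without mouse 3.

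In TAC hearts the comparison leaned the other way, again with 0 of 36 members called by edgeR. Beside them, edgeR called 0.0237% of all genes higher and 0.0771% lower. DESeq2 also called 0 members, beside 428 of all 16857 genes. The median log2 fold change was -0.09, and 9 members were above 0 beside 48.3% of all genes. No member was without overlap, beside 3.58% of all genes higher and 3.19% lower. Rsad2 (-0.38, SE 0.16) and Irgm1 (-0.29, SE 0.11) had an unadjusted p under 0.05, 2 of 36 members beside 15.0% of all genes, with adjusted p of 0.28 and 0.24. Ifi47 had -0.46 (SE 0.41), Dhx58 -0.38 (SE 0.23), Usp18 -0.27 (SE 0.18), and Oas2 0.25 (SE 0.22). The median was -0.25 without AAV9-Cardinal TAC mouse 1 and -0.03 without mouse 4 of that group. Averaged over both surgeries the vector effect had a median of 0.05 with 23 members above 0 beside 49.5% of all genes, and 0 members were called, beside 0.0119% of all genes called higher and 0.00% called lower. No member had an unadjusted p under 0.05 in that average in edgeR, where 7.53% of all genes did, and the largest values were those of Ifit2 (0.32, SE 0.33) and Ifi47 (-0.20, SE 0.29). Both depended on single mice. With a mouse left out they ran from 0.13 to 0.42 for Ifit2 and from -0.32 to -0.02 for Ifi47. The value of Ifi47 in TAC hearts alone ran from -0.69 to -0.10.

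**Figure D3:**
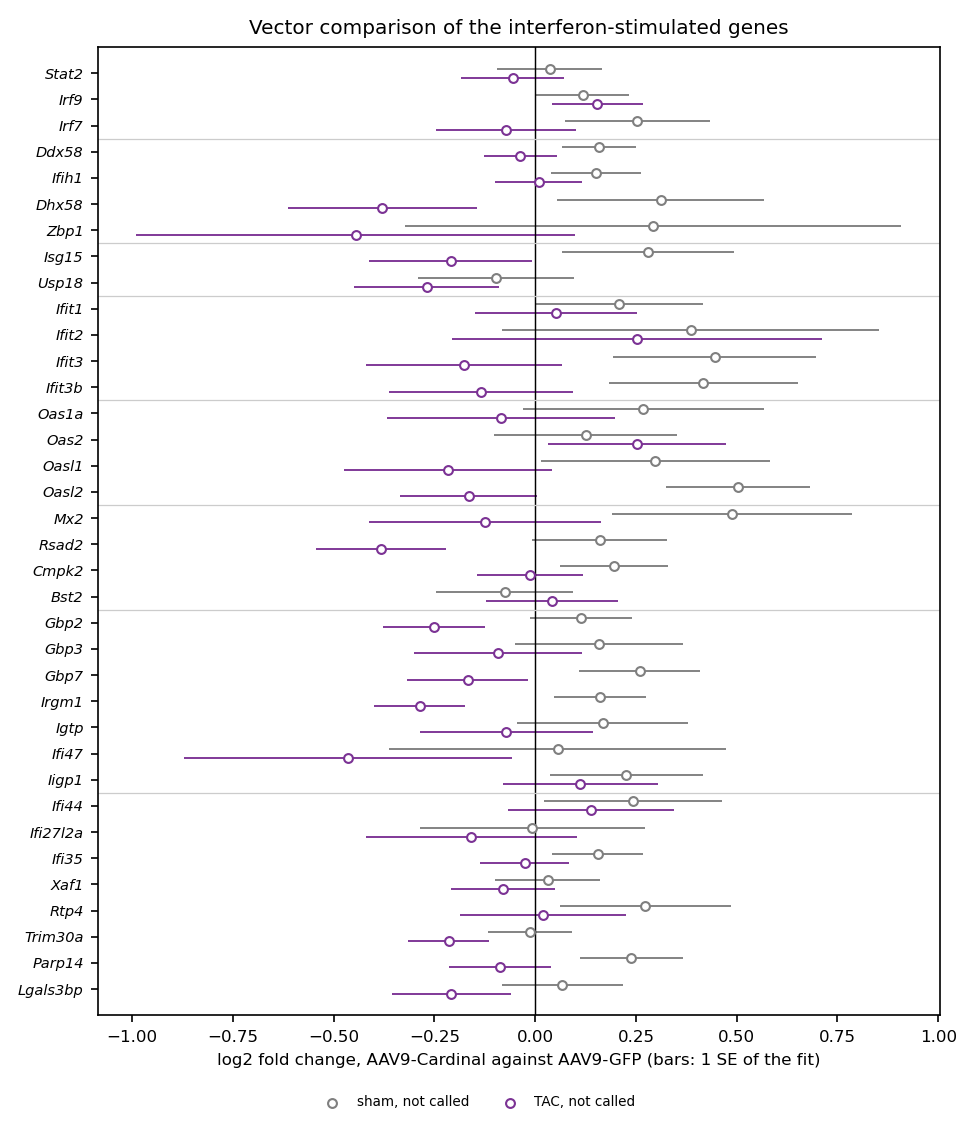
Vector effect, the log2 fold change from AAV9-GFP to AAV9-Cardinal (x axis), for the 36 tested members (y axis, ordered by role) in sham hearts in grey and TAC hearts in purple, bars 1 SE of edgeR's fit. No point is filled, since no member was called, and 32 members lay above 0 in sham hearts where 9 did in TAC hearts.

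The TAC response of an ISG was not shown to differ between the vectors. The interaction term, the response with AAV9-Cardinal minus that with AAV9-GFP, was called for 0 of 36 members in edgeR and in DESeq2. Over all 16857 genes, edgeR called 0.00593% in each direction and DESeq2 called 137 genes. The median of the term over the members was -0.25 in edgeR, and 3 members were above 0 beside 49.9% of all genes. Oasl2 (-0.67, SE 0.25), Rsad2 (-0.54, SE 0.23) and Irgm1 (-0.45, SE 0.16) had an unadjusted p under 0.05, 3 of 36 beside 10.2% of all genes, and their adjusted p was 0.39, 0.45 and 0.37. Dhx58 had -0.69 (SE 0.35), Ifit3 -0.62 (SE 0.35), Mx2 -0.61 (SE 0.42) and Ifit3b -0.55 (SE 0.33). A call with AAV9-GFP and none with AAV9-Cardinal was therefore not, by this test, a difference between the vectors for any of these genes. Without AAV9-Cardinal TAC mouse 1 the median was -0.40, and without AAV9-Cardinal TAC mouse 4 it was -0.16.

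From mouse to mouse, most ISGs varied together within a group. The mean log2 CPM of the 36 members was 2.43, 2.69, 2.70 and 2.60 in AAV9-GFP sham mice 1 to 4 and 2.98, 3.03, 2.89 and 2.70 in AAV9-GFP TAC mice 1, 3, 4 and 7. In AAV9-Cardinal mice it was 2.98, 2.50, 2.92 and 2.63 after sham surgery and 3.08, 2.46, 2.88 and 2.72 after TAC. The AAV9-Cardinal groups spread more widely, with SDs of 0.23 and 0.26 against 0.13 and 0.14, and each of them spanned most of the range of both AAV9-GFP groups. AAV9-Cardinal TAC mouse 1, the mouse with the most Cardinal, was the highest of its group for 26 of 36 members and mouse 4 the lowest for 23. Mouse 1 also stood apart in cell type markers, with a fibroblast sum of 928 CPM where mice 4, 5 and 6 had 497, 539 and 541 CPM, a macrophage and monocyte sum of 214 CPM against 165 to 186 CPM, and the lowest cardiomyocyte sum of its group (36242 CPM), whose part in the ISG values was not tested. Among AAV9-Cardinal sham mice, mouse 3 was highest for 21 members, mouse 1 for 15, and mouse 2 lowest for 21, and AAV9-GFP sham mouse 1 was lowest for 25.

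Taken as deviations from the group mean over the 16 mice, the median correlation between members was 0.47, and 90.6% of the 630 pairs were positive, where 1686 genes taken at even steps through all tested genes had a median of -0.0003 and 50.0% positive pairs. All points share libraries and normalization, and the correlations are given as descriptions. The genes most like the mean of the other members were Gbp3 (r = 0.92), Ifit3 (0.89) and Irgm1 (0.88), and the least like it were Rsad2 (0.13), Ifi35 (0.02) and Zbp1 (0.01). Rsad2 therefore rose with TAC in AAV9-GFP hearts while following its own order among mice within a group.

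**Figure D4:**
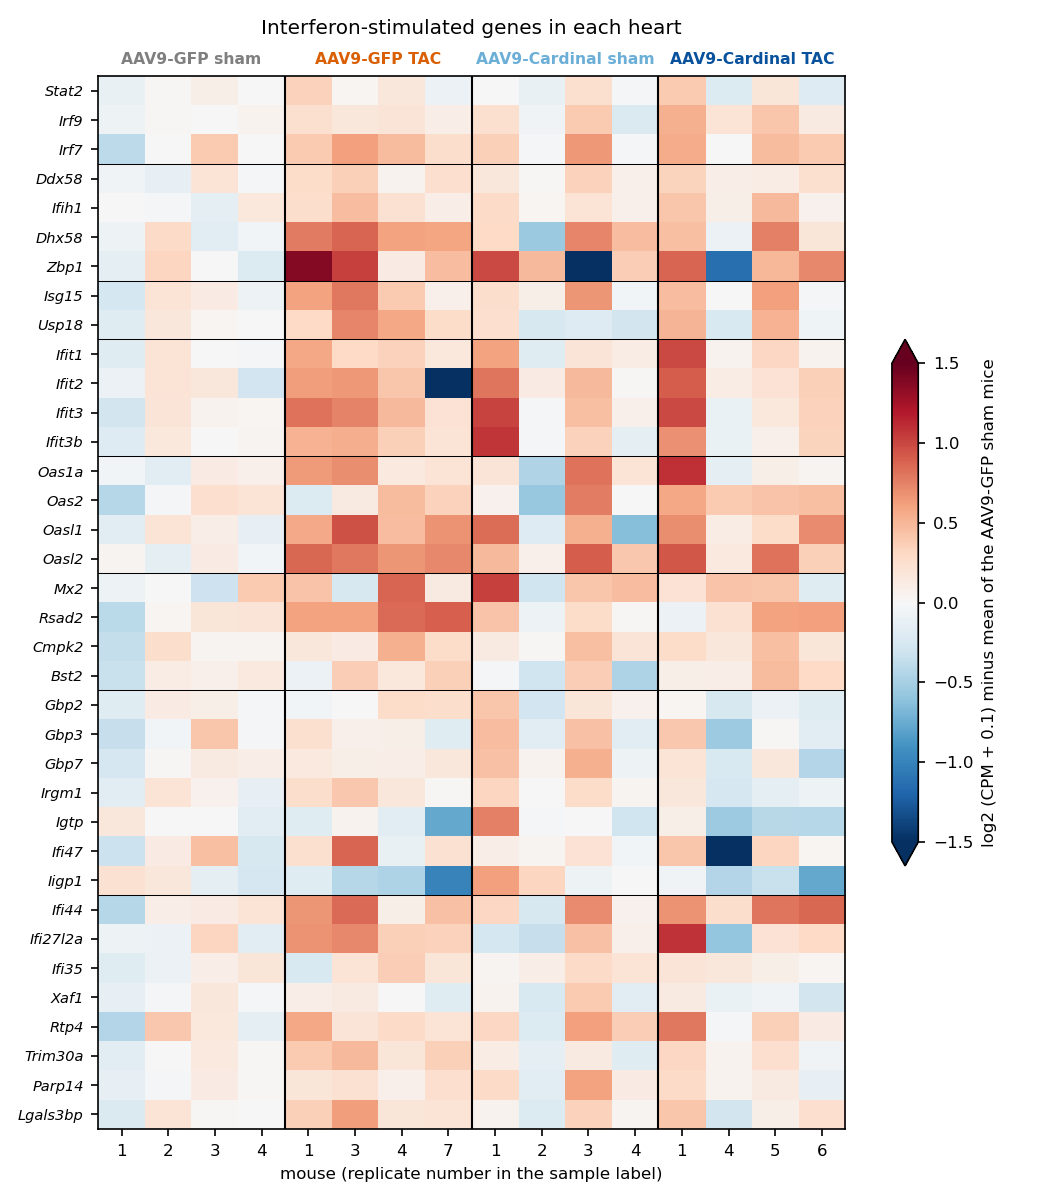
Log2 (CPM + 0.1) of the 36 tested members (rows, in blocks by role) in each of the 16 mice (columns, in groups) relative to the mean of the AAV9-GFP sham mice, red for higher and blue for lower. Columns differ as a whole within the AAV9-Cardinal groups, such as TAC mouse 1 (mean log2 CPM 3.08) beside TAC mouse 4 (2.46), and single cells stand out for Ifit2 in AAV9-GFP TAC mouse 7, Zbp1 in AAV9-Cardinal sham mouse 3 and Ifi47 in AAV9-Cardinal TAC mouse 4.

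Other parts of the interferon pathway moved in both directions with TAC in AAV9-GFP hearts. The counts of this paragraph and the next are to be read beside the 8.49% of all genes called higher and 8.92% called lower with AAV9-GFP, and the 3.10% and 3.38% with AAV9-Cardinal. Of 9 receptor and kinase genes, 3 rose and 3 fell. Those that rose were Ifnlr1, the receptor chain for lambda interferons (log2 fold change 0.79, SE 0.24), Ifnar1, a chain of the type I receptor (0.33, SE 0.07), and Ifngr1, the binding chain of the gamma receptor (0.29, SE 0.09). Jak1, the kinase that all these receptors use, fell by 0.27 on the log2 scale, and Il10rb, the chain shared with interleukin receptors, fell by 0.28. Ifngr2, the other chain of the gamma receptor, had means of 128 CPM in AAV9-GFP sham and 110 CPM in AAV9-GFP TAC mice. Averaged over both vectors, TAC lowered Ifngr2 by 0.20 on the log2 scale (SE 0.04, adjusted p = 0.0041 in edgeR) and raised Ifngr1 by 0.30 (SE 0.07). In AAV9-Cardinal hearts 0 of these 9 were called, by edgeR, with 5 at an unadjusted p under 0.05, beside 21.8% of all genes.

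Of 6 other interferon pathway transcription factors none was called by edgeR in either vector, with 0 at an unadjusted p under 0.05 with AAV9-GFP and 1 with AAV9-Cardinal. Of 16 genes of nucleic acid sensing, Tmem173 (STING), the adaptor of cytoplasmic DNA sensing (0.58, SE 0.17), and Traf3, which links sensors to interferon production (0.49, SE 0.08), rose with AAV9-GFP and 0 were called with AAV9-Cardinal. Of 10 negative regulators, Irf2bp2 and Pias1 fell with AAV9-GFP, by 0.70 and 0.31, and the phosphatase Ptpn11 rose with both vectors (0.29 and 0.37). Of 58 further interferon-induced genes that were tested, 10 rose and 0 fell with AAV9-GFP, with a median of 0.18. Slfn9 (0.77), Slfn8 (0.63), the immunoproteasome subunit Psmb10 (0.45), the RNA-activated kinase Eif2ak2 (0.41) and Shisa5 (0.41) changed most among those called at a mean of at least 1 CPM. Below that level Mx1, a dynamin-like antiviral GTPase, rose with a log2 fold change of 2.72 (SE 0.77, adjusted p = 0.024), from 0, 5, 0 and 5 counts in AAV9-GFP sham mice to 29, 16, 23 and 9 counts in AAV9-GFP TAC mice. In AAV9-Cardinal mice Mx1 had 15, 0, 14 and 7 counts after sham surgery and 14, 9, 18 and 10 counts after TAC, and it was not called (adjusted p = 0.81). These counts are few, and Mx1 was chosen after its values were seen. With AAV9-Cardinal, Shisa5 rose (0.30) and the GTPase Gbp4 fell by 0.54, with a median of -0.02.

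The marker sums of fibroblasts and cardiomyocytes separated sham from TAC mice in AAV9-GFP hearts, while those of macrophages and endothelial cells overlapped. The calls below are to be read beside all genes. Of these, 8.49% were called higher and 8.92% lower with AAV9-GFP, and 3.10% and 3.38% with AAV9-Cardinal. The summed level of 6 fibroblast markers was 490 to 551 CPM in AAV9-GFP sham, 855 to 1105 CPM in AAV9-GFP TAC, 477 to 526 CPM in AAV9-Cardinal sham and 497 to 928 CPM in AAV9-Cardinal TAC mice, the 928 CPM being that of mouse 1 alone, with 4 of the 6 called higher with AAV9-GFP and 1 with AAV9-Cardinal. The 10 macrophage and monocyte markers, all detected in every mouse, summed to 158 to 181, 173 to 229, 157 to 185 and 165 to 214 CPM in the same order of groups. Of them, 1 was called higher in each vector, Fcgr1 with AAV9-GFP and Ly6c2 with AAV9-Cardinal. The 5 endothelial markers summed to 377 to 464, 441 to 519, 402 to 428 and 414 to 524 CPM, again in that order. The 6 cardiomyocyte markers summed to 38970 to 41998 CPM in AAV9-GFP sham and 29913 to 36027 CPM in AAV9-GFP TAC mice, which did not overlap, and to 37750 to 41563 and 36242 to 39122 CPM in the AAV9-Cardinal groups, with 5 of the 6 called lower with AAV9-GFP and 1 with AAV9-Cardinal. Markers of T and NK cells, B cells, neutrophils and plasmacytoid dendritic cells, the cells that make most type I interferon, summed to at most 1.85, 1.00, 4.65 and 0.899 CPM in any mouse. The part of these cell types in the ISG values was not tested, and in whole tissue more cells of a type cannot be told apart from more RNA per cell.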

How the data were processed

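RNA-Seq of the heart apex was analysed in 16 mice. Per the labels, the poly(A)-selected libraries gave single-end reads of 50 bases, and the processing notes list FastQC, HISAT2 2.1.0, edgeR 3.26.1 and GRCm38. The deposited table holds raw counts for each Ensembl gene, made by the authors and not normalized. The counting program, the annotation release, the use of strand and the treatment of reads that match several places are not given in the sources used here. GENCODE M21 named 55480 of the 55573 rows, and 93 were not named.

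From these counts, edgeR 4.0.16 (R 4.3.3) computed TMM factors, an expression filter for 4 groups that left 16857 genes, and 1 quasi-likelihood model over the 16 mice, from which 7 contrasts were tested. A gene was called below 0.05 after Benjamini-Hochberg adjustment over all genes. SEs were derived from the same fit, and single values were compared by exact two-sided permutation (70 labelings). CPM used TMM-scaled library sizes, and log2 CPM a prior count of 2. Python 3.11.15 with pandas 2.3.3, numpy 2.4.6 and matplotlib 3.10.9 made summaries and plots.

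The members and lists were chosen with earlier results of these data known. Named genes were all members called in any comparison, the most abundant of each role and, where fewer than 6 were called, the 6 with the largest change at a mean of at least 1 CPM. Other members were named after their values were seen. Alternatives were DESeq2 1.42.0, its size factors, other filters, only the mice compared, mitochondrial genes left out, mouse number as a block, and each mouse left out. On simulated data of the AAV9-GFP comparison, 197 of 16649 tested genes were changed. Of these, 78.2% were recovered (57.1% of those changed 1.5-fold, 85.1% of those changed at least 2-fold) with 8 false calls. Changes below 1.5-fold were not simulated, nor were the vector comparisons or the interaction, so recovery there was not measured. Same-group mice differed beyond sampling noise (chi-square per degree of freedom at least 5.10), so all were kept.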

Additional observations from a re-analysis of the deposited data

Results flagged for a closer look

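In groups of 4 mice, 6 of 148 combinations of member and group held a mouse far from the other 3 (Dixon's test at the 95% level), where chance gives 7.4. Ifit2 was at 1.00 CPM in AAV9-GFP TAC mouse 7 and at 14.0 to 16.5 CPM in the other 3. Usp18 was at 2.67 CPM in AAV9-Cardinal sham mouse 1 and at 1.82 to 1.92 CPM in the others. Oas1a and Igtp were at 3.45 and 11.2 CPM in AAV9-Cardinal TAC mouse 1, where the others reached 1.68 and 7.87 CPM. Oas3 was at 0.0465 CPM, from 1 count, in AAV9-Cardinal sham mouse 2, and Ifi27l2a at 5.00 CPM in AAV9-GFP sham mouse 3.

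For Gbp7, a guanylate-binding protein, every AAV9-GFP TAC mouse was above its sham mean and every AAV9-Cardinal TAC mouse below it. The difference between the responses was -0.43 on the log2 scale and did not pass the interaction test in edgeR (adjusted p = 0.51).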

How the results depend on the processing

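Over the named genes and all alternatives, 1067 values kept their direction and side of the threshold, 40 lost the call, 7 gained one and 0 changed direction. These genes were named for a call or a large change, and some mice left out belonged to neither group compared. A kept direction is therefore weak evidence of stability. The median over the members with AAV9-Cardinal did change sign, to -0.051 without TAC mouse 1 and -0.021 without sham mouse 2 of that vector. Of the 7 counts of called members, those of the vector comparisons and of the interaction were 0 under every alternative. With a mouse left out, 1 to 3 of all genes were called for the vector in sham hearts and 0 to 535 in TAC hearts. For the vector average 2 to 36 genes were called, and for the interaction 2 to 79. With AAV9-GFP, TAC called 4 members, beside 2934 of all 16857 genes. Without a filter on low counts it called 2 (Oasl2 and Rsad2), beside 2348 of 30343 genes. With only the mice compared in the fit it called 9, beside 2338 of 16306. With each mouse left out it called 2 to 4 members, beside 1962 to 3072 genes. The 2 were reached without AAV9-GFP sham mouse 1 (2334 of 17088 genes called) or without AAV9-GFP TAC mouse 3 (1962 of 17044), so calls were also fewer over all genes in these fits with a mouse left out. Trim30a was kept in 13 of 16 and Dhx58 in 6 of 16 of these fits. With AAV9-Cardinal, DESeq2 called 1 member (Iigp1), and leaving out mice gave 0 to 1, the 1 being Iigp1 without AAV9-Cardinal TAC mouse 1 or without AAV9-GFP TAC mouse 7. Over all genes, DESeq2 called 1369, and the fits with a mouse left out called 384 to 1436. For TAC averaged over both vectors, leaving out mice gave 4 to 9 members, beside 3340 to 4222 of all genes. The 9 came without AAV9-Cardinal sham mouse 3, where 3664 of 17086 genes were called. The cause of these changes was not tested.

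Deviations of mice with the same number in the labels had correlations from -0.040 to 0.21. Mice with different numbers were not compared in this way, so whether the numbers pair mice across groups was not settled. With mouse number as a replicate block, 5 members were called with AAV9-GFP (Iigp1 lower, and Isg15, Oasl2, Rsad2 and Trim30a higher). With AAV9-Cardinal 0 were called, and 2 (Iigp1 and Trim30a) in the average. In the same order, 2091, 31 and 2019 of all 16857 genes were called. The 0 with AAV9-Cardinal thus came where few genes of any kind were called. Zbp1 rested on 0 to 42 counts per mouse and had an SE of 0.57 with AAV9-GFP.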
